A study of Glycine max with 4 samples.

Results

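Soybean chromosome 13 carried 1103 GmWRI1 regions, out of 15181 in the whole data set and 13999 on the other 19 chromosomes. A region was a merged interval in which peaks of both replicates lay together, with at least 1 bp shared between neighbouring peaks. The peaks came from sequencing of immunoprecipitated chromatin (ChIP-Seq) of embryos at the early maturation (em) stage of the cultivar Williams 82, and the samples comprised 2 ChIP libraries and 2 input libraries (total chromatin, no antibody) as 2 biological replicates. The antibody was raised against a peptide of GLYMA.08G227700 and, per the study's methods, recognises both GmWRI1 proteins, so the regions cannot be assigned to either. Whole embryos were used, so the values are averages over their cell types, and the inputs were not analysed separately here. Chromosome 13 was singled out because it had the highest density of regions and the lowest share of regions near its ends among the 20 chromosomes. Both properties are therefore given as a description, without a test.

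GmWRI1 corresponds to WRINKLED1 of Arabidopsis, a transcription factor of the AP2 type which directs carbon from sugars into fatty acids in developing seeds. Its best known targets encode glycolytic enzymes and the plastid enzymes that build fatty acids. Soybean chromosomes typically hold most of their genes towards both ends, on either side of a long, repeat-rich and gene-poor middle that includes the centromere.

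Replicate 1 had 1633 peaks on chromosome 13 and replicate 2 had 1454. Of these, 70.4% of the replicate 1 peaks lay in a region (95% Wilson interval, 68.1 to 72.5%), as did 82.7% of the replicate 2 peaks (80.6 to 84.5%). On the other chromosomes the shares were 68.2% in replicate 1 and 81.6% in replicate 2. These intervals cover counting error only. Single chromosomes ranged from 65.6 to 70.6% in replicate 1 and from 79.3 to 83.6% in replicate 2, so the shares of chromosome 13 lay within the range of the others in both. The smallest overlap between the replicates in any chromosome 13 region was 2 bp, at chr13:40123243-40123686, where fold enrichment was 2.69 in replicate 1 and 3.29 in replicate 2. The closest peaks that did not meet were 1 bp apart and had fold enrichments of 2.52 in replicate 1 and 3.91 in replicate 2. Fold enrichment here is the authors' value at a peak's summit, the number of ChIP reads divided by the local background.

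The density on chromosome 13 was 24.1 regions per Mb, over a length of 45.8 Mb taken to the end of its last peak. The other 19 chromosomes together had 15.5 regions per Mb, a ratio of 1.55, and singly had 11.2 to 23.1. The next densest were chromosome 11, with 23.1 regions per Mb, and chromosome 8, with 20.9. Chromosome 13 held 7.30% of the regions of the 20 chromosomes on 4.83% of their length. It came first in each list taken alone, with 35.7 peaks per Mb in replicate 1 and 31.8 in replicate 2, against 23.5 and 20.5 on the other chromosomes. The lead was narrow, however. When both lists were restricted to peaks with a −log10 q of at least 10, chromosome 13 had 12.7 regions per Mb and chromosome 11 had 13.1.

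The regions of chromosome 13 were concentrated in its middle and far end rather than at both ends. The outer 20% at each end held 36.7% of its regions, against 72.4% on the other chromosomes together and 62.2 to 85.7% singly. The lowest of those was chromosome 8, followed by chromosome 11 with 63.2%. By successive quintiles of its length, chromosome 13 held 20, 135, 249, 314 and 385 regions, or 2.19, 14.8, 27.2, 34.3 and 42.1 regions per Mb. The other chromosomes had 28.3, 10.4, 3.26, 7.78 and 27.9 regions per Mb. Thus the number climbed from quintile to quintile on chromosome 13, whereas the pooled total of the others was high at both ends and lowest in the middle. Single chromosomes departed from that pooled profile, and their lowest quintile was not always the middle one. The first quintile of chromosome 13 held 1.81% of its regions, while on the other chromosomes it held at least 11.8%. The middle quintile held 22.6% on chromosome 13 and at most 6.94% elsewhere. The last quintile held 34.9% of the regions on chromosome 13, close to the 35.9% on the others.

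**Figure D1:**
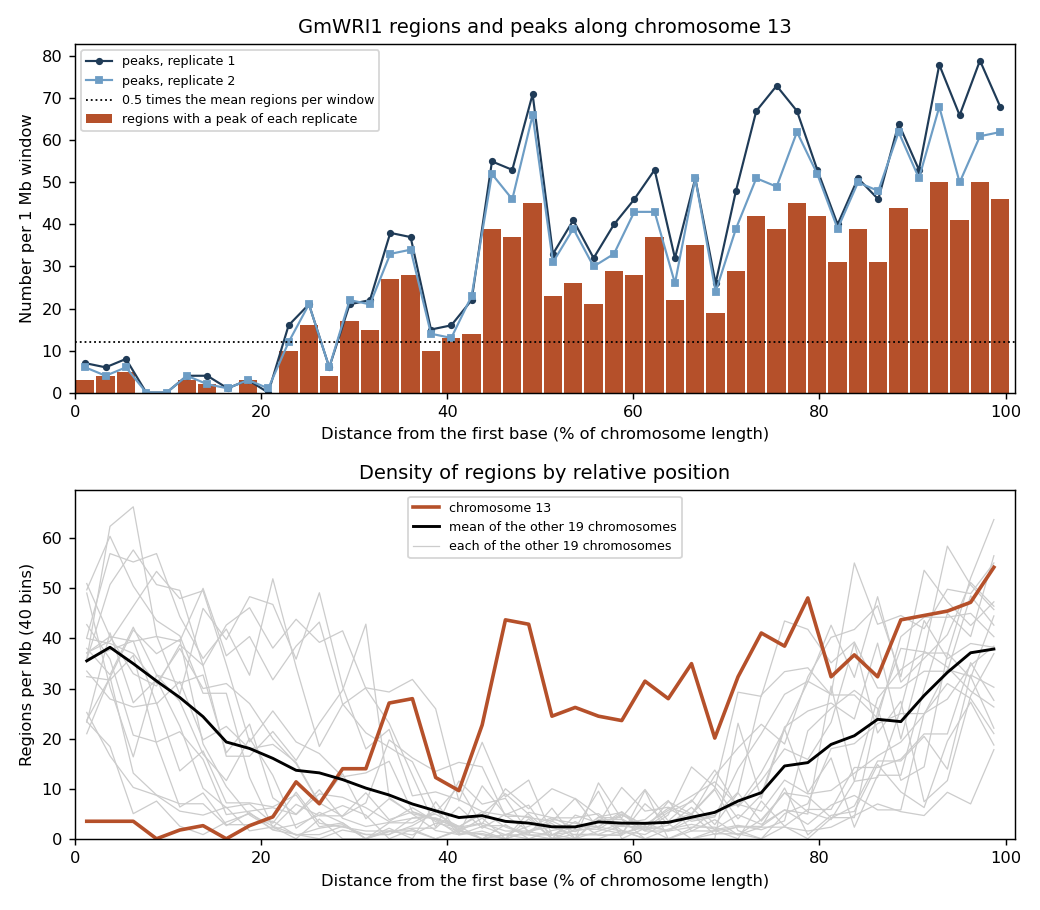
Upper panel, number of regions (bars) and of peaks in each replicate (lines) in 1 Mb windows of chromosome 13 by distance from the first base, as % of chromosome length, with the sparseness threshold dotted. Lower panel, regions per Mb in 40 bins of relative position on chromosome 13 and on the other 19 chromosomes, each and as a mean. Chromosome 13 was sparse at its start and dense from its middle to its end, where the mean of the others was low in the middle and high at both ends.

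The sparse part lay at the very start of the chromosome. It was defined as the longest run of 1 Mb windows with fewer than 0.5 times the mean number of regions per window. On chromosome 13 it comprised the first 11 windows, or 24.0% of the length, with 30 regions (2.73 per Mb). On all 19 other chromosomes the sparse run began and ended inside the chromosome, starting at 6.27 to 55.0% of the length. It was 8 to 30 windows long there, and 3 chromosomes had a shorter run than chromosome 13. Its density of 2.63 regions per Mb over the other chromosomes was close to that on chromosome 13. Outside the sparse run chromosome 13 had 1073 regions at 30.9 per Mb, and it ranked 4 of 20 by this measure. The other chromosomes had 23.4 per Mb outside their sparse runs, with a range of 13.7 to 33.7. Hence chromosome 13 stood first in density over its whole length but not outside the sparse runs.

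Within the sparse run, 12 regions lay in the first 3 Mb, 8 between 5 and 9 Mb and 10 in the last window. The largest gap between neighbouring regions of the chromosome, 2.496 Mb at chr13:2735992-5232214, was inside this run. In the 2 windows wholly inside that gap neither replicate had a peak. Largest gaps of 1.42 to 5.20 Mb were found on the other chromosomes, so that of chromosome 13 was not extreme. Replicate 1 had 49 peaks in the sparse run and replicate 2 had 39, which were 3.00 and 2.68% of their peaks on the chromosome. Across the 46 windows of the chromosome, the peak counts of the 2 replicates had a Spearman's rho of 0.976, with no p-value because neighbouring windows are not independent. Both replicates therefore gave the same profile.

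Beyond the sparse run only 2 further windows fell below the same threshold. The highest count in a window was 50 regions, and 8 of the 9 windows with 40 or more regions lay beyond 32 Mb. The last window was shorter, from 45 to 45.76 Mb, and held 46 regions, so it was denser per Mb. The stretch from 32 Mb to the end had 568 regions (51.5%), or 41.3 per Mb. A second dense block of 121 regions lay between 20 and 23 Mb, in the middle of the chromosome. Neighbouring regions were typically 19.8 kb apart (median), against chromosome medians of 16.6 to 33.4 kb elsewhere, and 365 of 1102 neighbours (33.1%) lay within 10 kb of each other. This spacing ranked 10 of 20 from the closest, in contrast to its first rank in density.

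The numbers in soybean gene names give a rough count of gene models along a chromosome. Among 288 genes with a position on chromosome 13, the number was higher in the more distal gene for 281 of 287 neighbouring pairs. The last located gene in the sparse run, Glyma.13G031500 at 10229380 bp, carries number 315 when its last 2 digits are left out, and the last on the chromosome, at 45727981 bp, carries 3722. This amounts to 30.8 numbers per Mb up to Glyma.13G031500 and 96.0 per Mb from there to the last gene. Over the same stretches there were 24 and 1075 regions, or 7.62 and 31.6 per 100 numbers. The first stretch, which makes up most of the sparse run, was therefore poor both in gene numbers and in regions per gene number. What part the number of genes has in the density of regions was not tested, and the gene annotation itself was not used here.

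**Figure D2:**
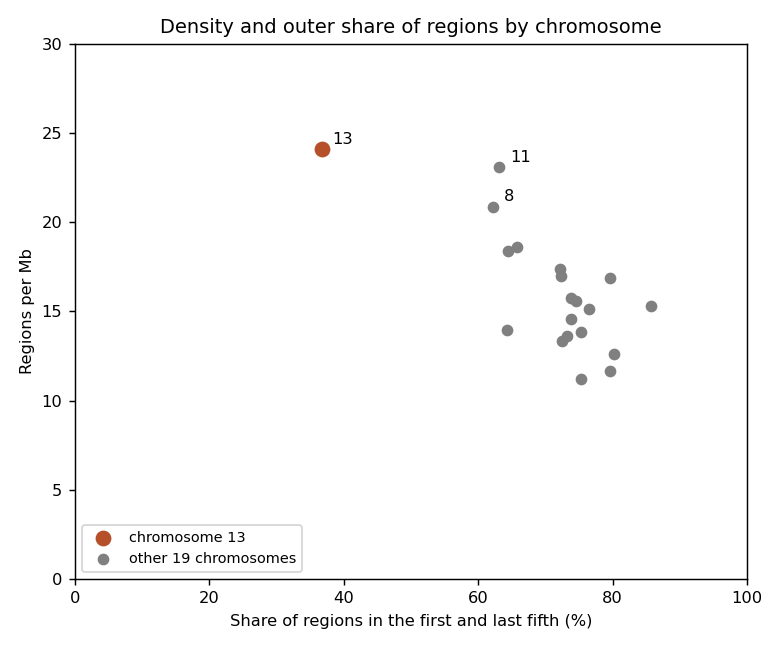
Regions per Mb (vertical) against the share of regions in the outer 20% at each end of the chromosome (horizontal, %), with 1 point per chromosome. Chromosome 13 had 24.1 regions per Mb and an outer share of 36.7%, apart from the other 19 at 62.2 to 85.7%, whereas chromosome 11 was close to it in density.

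The regions of chromosome 13 were of ordinary strength. Their median fold enrichment was 4.78 in replicate 1 and 5.27 in replicate 2, against 4.82 and 5.32 over the regions of the other chromosomes. The average of both replicates had a median of 5.01 (quartiles 4.04 and 7.42), against 5.03 (4.01 and 7.50), and the medians of single chromosomes ran from 4.88 to 5.27. Chromosome 13 was 12 of 20 in this order, and its ratio to the others was 0.995. A typical summit held 45 ChIP reads over a background of 8.49 in replicate 1 and 29 reads over 4.39 in replicate 2, with the same median reads on the other chromosomes. The highest summits had 407 reads in replicate 1 and 355 in replicate 2, and the lowest had 22 and 15, so the weakest regions rest on few reads.

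Strong regions made up a smaller share of chromosome 13 than of most chromosomes. A region was called strong when its peaks belonged to the strongest 5% of both lists by fold enrichment (at least 14.8 in replicate 1 and 18.4 in replicate 2). This held for 50 of the 1103 regions, or 4.53%, beside 5.94% of all regions in the data set and 6.07% on the other chromosomes. Single chromosomes ranged from 4.20 to 8.10%, and chromosome 13 ranked 18 of 20. No test was made, since regions of a chromosome are not replicates, and the share lay inside the range of the others. In the last quintile 5.97% of the regions were strong, in the middle quintile 3.21% and in the second quintile 3.70%. On the other chromosomes the corresponding shares were 6.13, 6.29 and 6.78%. The last quintile held 23 of the 50 strong regions.

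The regions were of ordinary width. Their median was 566 bp (quartiles 408 and 880 bp), against 554 bp on the other chromosomes, whose own medians ran from 529 to 588 bp. Regions of 2 kb or wider numbered 35 (3.17%), beside 3.46% of all regions, and the widest spanned 3534 bp, against 5974 bp elsewhere. In all, regions covered 1.76% of chromosome 13 and 1.12% of the others. The median distance between the summits of replicates 1 and 2 was 42 bp, and 74.9% of the pairs were no more than 100 bp apart. Fold enrichment was higher in replicate 2 in 758 regions (68.7%), beside 68.4% of all regions, with a median ratio of 1.14 between the replicates. Their rank correlation across the regions (Spearman's rho) was 0.781 on chromosome 13 and 0.783 on the others.

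Strength hardly varied with density along the chromosome. The median fold enrichment of the 30 regions in the sparse run was 4.71 in replicate 1 and 4.91 in replicate 2, against 4.80 and 5.27 in the rest of the chromosome. Over the 42 windows with any region, the count of regions and their median fold enrichment had a Spearman's rho of 0.155, given as a description. Regions in the sparse run had a median width of 490.5 bp, against 569 bp beyond it. Thus few regions were found there, and their medians were somewhat lower in both replicates. Within the run, window medians of the mean of both replicates ran from 3.35 (6 to 7 Mb, 2 regions) to 6.17 (10 to 11 Mb, 10 regions). The median of the first quintile was 4.51, against 4.92 to 5.07 in the later quintiles.

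**Figure D3:**
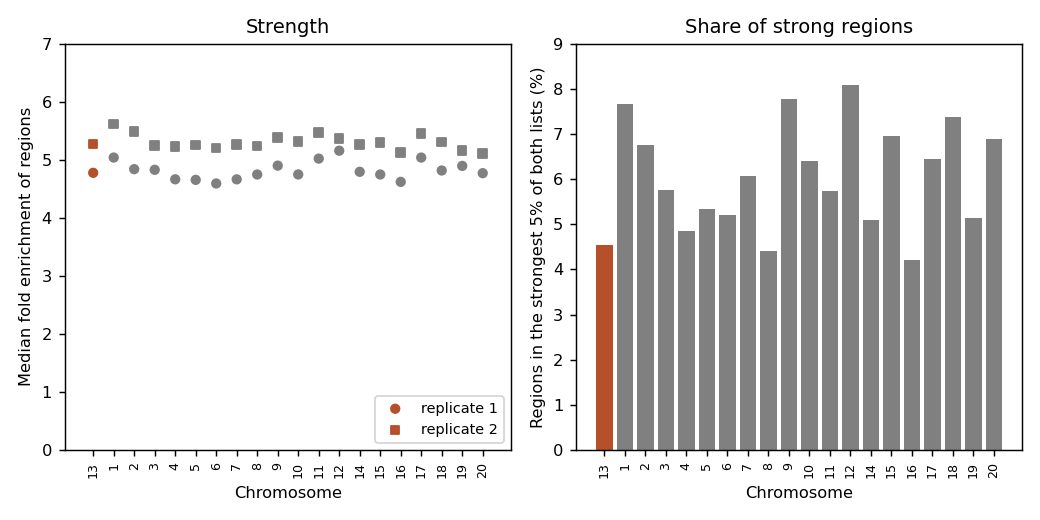
Left, median fold enrichment of the regions in replicate 1 (circles) and replicate 2 (squares) by chromosome. Right, share of regions (%) in the strongest 5% of both lists. Chromosome 13 is leftmost and in colour. Its medians of 4.78 and 5.27 lay among the others, and its strong share of 4.53% was among the lowest but within their range of 4.20 to 8.10%.

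Names could be given to 272 regions (24.7%), where the position of a bound gene given with the study fell inside the region. These positions were 171 sites of GmWRI1 direct target (DT) genes, 6 of them in genes of fatty acid and triacylglycerol synthesis, and 175 peaks of genes bound at the cotyledon (cot) stage. The study reports that its cot-stage data fell short of ENCODE quality thresholds and gave fewer bound genes than the em stage. The DT genes were chosen by the study as bound in these same samples, so the presence of a peak at them is no independent evidence. The study also required them to be coexpressed with *GmWRI1*. Named genes without a DT site took their names from cot-stage peaks alone. Named regions had a median fold enrichment of 7.87 in replicate 1 and 8.59 in replicate 2, against 4.38 and 4.94 for regions without a name, and 41 of them (15.1%) were strong, against 1.08% of the regions without a name. The loci below are thus a strong selection from the chromosome. Coordinates are those of the deposited lists, taken as build Wm82.a2.v1, and functions are those known for the Arabidopsis counterparts. Whether a region lies in an exon, an intron or a UTR was not analysed here.

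The strongest region of the chromosome, chr13:15759024-15760403, was at *CDC2C* (Glyma.13G060300), which encodes a cyclin-dependent kinase. This gene had no DT site and was named from a cot-stage peak. The fold enrichment of the region was 49.9 in replicate 1 and 70.7 in replicate 2, from 407 and 355 summit reads. Single regions were ordered by their mean rank of fold enrichment over both replicates. In this order the *CDC2C* region ranked 3 among all 15181 regions. The next, chr13:35522921-35524705 at Glyma.13G246500, a gene described as an unknown protein, had 44.0 and 69.7 and ranked 20. Only these 2 regions of chromosome 13 were among the strongest 100 of the data set. Both were far above the chromosome's median in each replicate.

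Both located gibberellin 2-oxidase genes were among the 6 strongest regions by mean rank. These enzymes inactivate gibberellins, hormones that promote growth and germination. *GA2OX2* (Glyma.13G218200, chr13:33139998-33142338) had fold enrichments of 37.3 in replicate 1 and 47.6 in replicate 2. *GA2OX1* (Glyma.13G259500, chr13:36395222-36397379) had 38.0 and 38.7, nearly equal in the 2 replicates. These regions were also wide, at 2341 and 2158 bp. *TINY2* (Glyma.13G355700, chr13:44423844-44426124), which encodes a transcription factor of the same AP2/ERF superfamily as GmWRI1, had 38.5 and 44.7 over 2281 bp. Like *CDC2C*, the genes *GA2OX2*, *GA2OX1* and *TINY2* had no DT site.

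The sparse run held the region of rank 5 on the chromosome. It lay at chr13:2117298-2118161, at Glyma.13G007800, a gene described as an unknown protein, and had a fold enrichment of 33.0 in replicate 1 and 47.7 in replicate 2. The nearest region downstream was 443.9 kb away. It was the only strong region among the 30 of the sparse run. The second there, chr13:679208-679674 at the adjacent genes Glyma.13G002400 and Glyma.13G002500, had 14.9 and 13.6. The third was chr13:10380790-10382044, without a name, with 11.1 and 7.40. The fourth, at Glyma.13G030900 (chr13:10138087-10138643), had 7.95 and 8.54, and next was chr13:10249512-10250943, without a name, with 7.23 and 8.09. All other regions of the sparse run were weaker on average, down to a mean of 3.22.

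Fatty acid synthesis was represented among the strongest 20 regions by *BCCP2* and *ACP4*. *BCCP2* (Glyma.13G057400) encodes the biotin carboxyl carrier subunit of plastid acetyl-CoA carboxylase, the enzyme of the committed step of fatty acid synthesis. Its region, chr13:15513665-15514562, had fold enrichments of 32.01 in replicate 1 and 37.6 in replicate 2 from 340 and 232 summit reads, and the summits were 1 bp apart. *ACP4* (Glyma.13G214600), an acyl carrier protein that holds the growing acyl chain, had 30.0 and 33.1 at chr13:32794370-32795191. Both genes were thus about equally occupied, and the replicates differed little at either. Unlike *CDC2C*, both had DT sites.

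The other named loci of the strongest 20 belonged to varied processes. Glyma.13G360600, a galactose oxidase/kelch repeat protein, differed most between replicates, with 24.9 in replicate 1 and 60.7 in replicate 2. Its local background was 14.5 reads in replicate 1 and 4.61 in replicate 2, while its summit reads were 384 and 340. Glyma.13G134600, for a protein of a transmembrane receptor family, had 29.2 and 47.5. Glyma.13G262500, described as a protein of the chalcone-flavanone isomerase family, had 23.5 and 45.1. Here too the replicate 1 value was the lower. The galactosyltransferase gene Glyma.13G308900 had 26.8 and 42.9, and *FLA21* (Glyma.13G304100), for a fasciclin-like arabinogalactan protein of the cell surface, had 26.1 and 43.5. *AHA11* (Glyma.13G065400), a proton pump of the plasma membrane, had 29.8 and 31.0. *MAPKKK17* (Glyma.13G309900), a protein kinase of a signalling cascade, had 32.7 and 27.4 and was the only region of the strongest 20 that was higher in replicate 1. The remaining 5 were Glyma.13G068000, Glyma.13G250100, a basic helix-loop-helix gene (Glyma.13G204400) and 2 regions without a name, chr13:20808369-20809013 and chr13:31349374-31350169. Across the 20 regions fold enrichment spanned 23.5 to 49.9 in replicate 1 and 27.4 to 70.7 in replicate 2, and summits lay 1 to 82 bp apart. Of these regions 15 lay beyond 20 Mb and 4 were at least 2 kb wide.

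**Figure D4:**
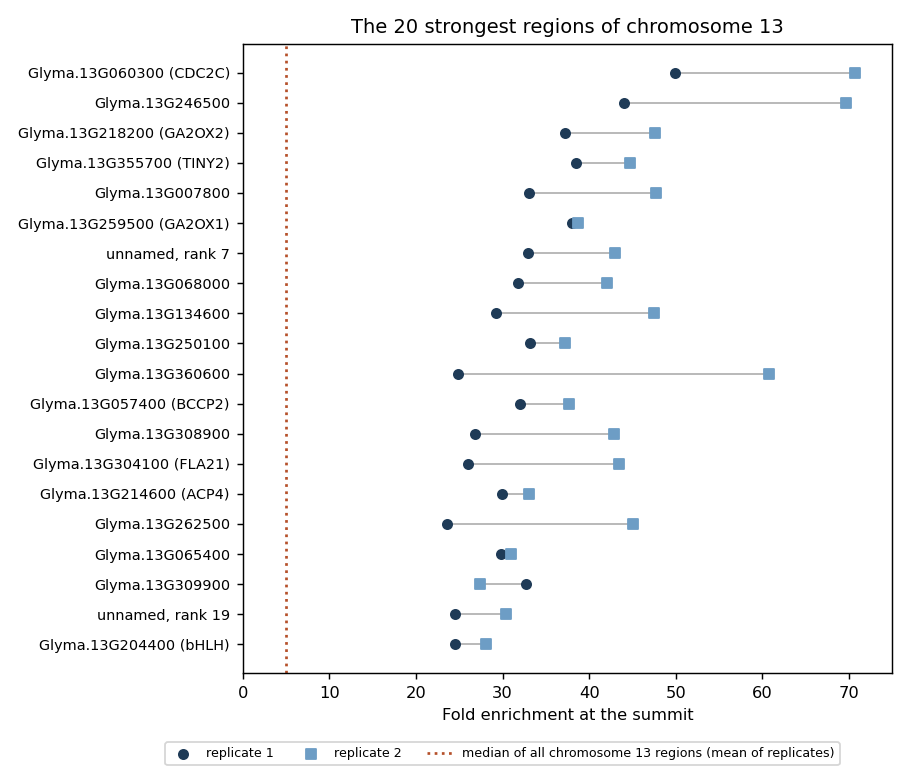
Fold enrichment at the summit in replicate 1 (circles) and replicate 2 (squares) for the 20 regions of chromosome 13 with the highest mean rank over both replicates, with the chromosome's median dotted. Values were 23.5 or higher in both replicates, and 19 of 20 were higher in replicate 2.

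The widest regions were not the strongest. The widest, chr13:35710731-35714264 (3534 bp), at the receptor kinase gene Glyma.13G249300, had 12.5 in replicate 1 and 18.2 in replicate 2. The next 3, of 3363, 3009 and 2973 bp, had no name, and their fold enrichments were between 4.80 and 10.4 in either replicate. The last of the 5 widest, chr13:37462417-37465224 (2808 bp), spanned the positions of Glyma.13G272600 and of Glyma.13G272700, described as a RING/U-box protein, and had 13.4 and 13.1. None of the 5 was strong in both lists.

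Genes of functional lists were then described, from positions given for 49 of the 69 genes listed. All 49 lay in a region, and 46 of them were above the chromosome's median of 5.01. Their positions were bound sites given by the study, so lying in a region is no independent evidence. Since the regions of all 49 were named ones, the median of 8.52 over the named regions (mean of both replicates) is the closer measure for these lists. Of the 49 genes 15 had a strong region, beside 4.53% of all regions of the chromosome and 15.1% of the named ones. The lists were drawn up with earlier results of these data known, so neither count says anything of the processes they stand for. The other 20 genes of the lists had no position here and were not assessed, among them *DGAT1*, *KASII* and both ketoacyl-CoA synthase genes of the list for very long chain fatty acids.

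In glycolysis and malate metabolism, which supply carbon for fatty acids, 4 of 9 genes were located and none was strong. *PGK1* (Glyma.13G045400), a phosphoglycerate kinase, had 6.04 in replicate 1 and 5.42 in replicate 2. *PFK3* (Glyma.13G353400), a phosphofructokinase, had 13.3 and 12.9. A phosphoglycerate mutase gene (Glyma.13G087800) had 16.2 and 9.87. *NADP-ME4* (Glyma.13G354900), which makes pyruvate from malate, had 5.81 and 8.26. These were well below *BCCP2* and *ACP4* in both replicates. *PDAT1* (Glyma.13G108100), which passes an acyl group from a phospholipid to diacylglycerol to form triacylglycerol, was the weakest of all located list genes, with 2.68 and 3.88 from 25 and 20 summit reads. These values come from different places in the region, as the summits lay 520 bp (replicate 1) and 31 bp (replicate 2) from the study's site.

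Sugar metabolism had 5 of 6 genes located. The highest was a pfkB-type carbohydrate kinase gene (Glyma.13G120200) with 18.8 in replicate 1 and 22.0 in replicate 2, followed by *SUS4* (Glyma.13G114000), a sucrose synthase that cleaves imported sucrose, with 19.7 and 17.3. A second pfkB-type kinase gene, Glyma.13G344500, had 9.08 and 8.89. *TPS11* (Glyma.13G092500), of the trehalose phosphate synthase family, and a raffinose synthase gene (Glyma.13G160100) averaged 8.72 and 7.01. The last of these was below the median of the named regions.

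Transcription factor genes were the largest list, with 14 of 14 located and 7 strong, beside 15.1% strong among all named regions. Of the 7 strong genes, only the basic helix-loop-helix gene Glyma.13G204400 had a DT site. After *TINY2*, the highest by mean fold enrichment was *ARF4* (Glyma.13G328000), an auxin response factor, with 20.4 in replicate 1 and 35.9 in replicate 2. The basic helix-loop-helix gene Glyma.13G204400, with 24.5 and 28.0, and *ERF12* (Glyma.13G236600), with 19.2 and 32.7, came next. *WRKY11* (Glyma.13G102000) had 20.2 and 24.6, *LBD22* (Glyma.13G349700) had 18.7 and 24.5, and *NTL8* (Glyma.13G314600), a NAC factor, had 16.0 and 18.97. The other 7 averaged 5.40 to 15.6, from *MYB101* (Glyma.13G309200) at the low end to *CRF4* (Glyma.13G040400), a cytokinin response factor, at the high end. The *MYB101* summits lay apart, at 40486798 in replicate 1 and 40486342 in replicate 2. The list median was 16.5, beside 8.52 for all named regions and 5.01 for all regions of the chromosome.

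Among the other hormone genes, *ABCB19* (Glyma.13G063700) and *PIN6* (Glyma.13G038300), which encode auxin transporters, averaged 18.1 and 12.3. *AHP4* (Glyma.13G354700), a cytokinin phosphotransfer protein, averaged 8.60. *PBP1* (Glyma.13G283600), which binds the kinase PINOID, had 2.51 in replicate 1 and 5.51 in replicate 2 and averaged 4.01. It was the only one of the 6 below the chromosome's median. Of 9 cell wall and surface genes, *FLA21* and *ABCG11* (Glyma.13G043500), an exporter of cuticle lipids, were strong. *ABCG11* had 15.2 in replicate 1 and 27.9 in replicate 2, and the other 7 averaged 4.10 to 11.4.

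Genes listed under the cell cycle, the cytoskeleton and chromatin were occupied at intermediate levels apart from *CDC2C*. The place of *CDC2C* in this list rests on its name, and its role in the cell cycle was not assessed. *CYCD6* (Glyma.13G303000), a D-type cyclin, had 13.3 in replicate 1 and 15.4 in replicate 2. *ROS1* (Glyma.13G151000), a DNA demethylase, had 16.5 and 16.7, and the Mediator subunit genes *MED33A* (Glyma.13G209800) and *SFR6* (Glyma.13G241100) averaged 14.1 and 6.34. A bromodomain gene (Glyma.13G066200) averaged 8.51. *MAP65-5* (Glyma.13G189600), which encodes a microtubule bundling protein, had 2 regions that averaged 8.46 and 8.54. None of these except *CDC2C* was strong in both lists.

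**Figure D5:**
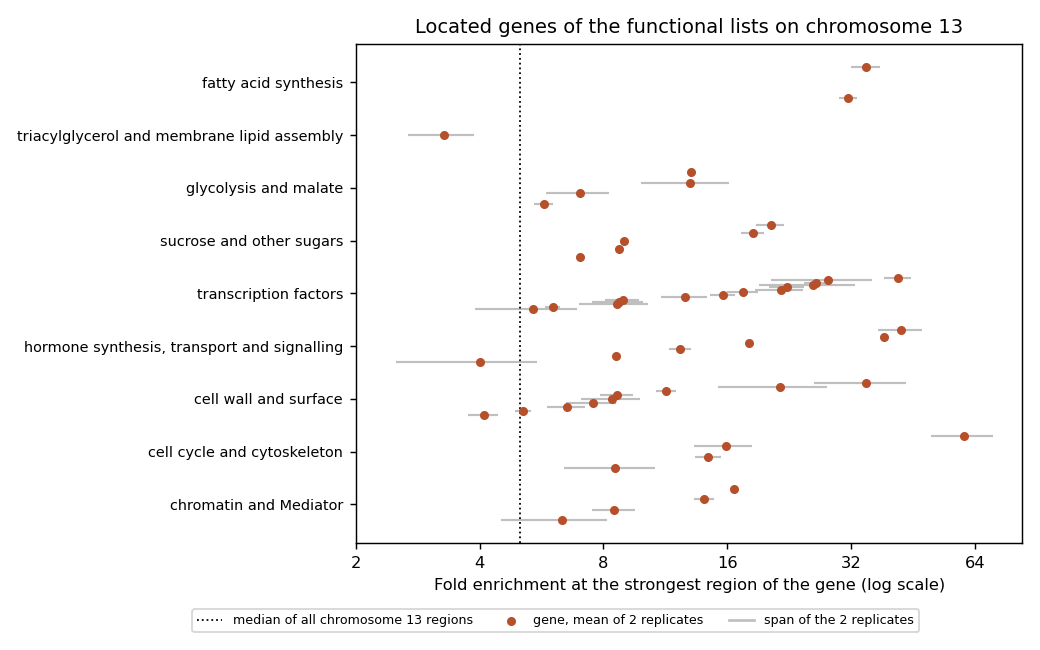
Fold enrichment (log scale) at the strongest region of each of 49 located genes, grouped by functional list, with points for the mean of 2 replicates, lines for their span, and the median of all chromosome 13 regions dotted at 5.01. *BCCP2* and *ACP4* stood at 31.5 or higher, *PDAT1* was lowest at 3.28, and 46 of the 49 lay above the median.

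Of the 171 DT sites, which belonged to 156 genes, 157 (91.8%) lay in a region, and 4 lay in no peak of either replicate. They fell into 152 regions, with summits a median of 9 bp from the site in replicate 1 and 19 bp in replicate 2. These regions had median fold enrichments of 5.64 in replicate 1 and 5.87 in replicate 2, against 4.65 and 5.21 in regions without a DT site. Of these 152 regions, 11 (7.24%) were strong, beside 4.53% of all regions of the chromosome, 5.94% in the whole data set and 15.1% of the named regions of the chromosome. The sparse run held 4 DT sites (2.34%), and 2.72% of all regions of the chromosome lay there. The sites of Glyma.13G030600 and Glyma.13G030900 fell in a region. Those of Glyma.13G001200 and Glyma.13G031500 fell in a peak but in no region. Most DT genes had a single site, whereas 4 genes had at least 3.

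The genes with 3 sites had regions spread over several kb. The myosin gene Glyma.13G281900, for a motor protein that moves along actin, had its strongest region at chr13:38331524-38333433, with 13.3 in replicate 1 and 18.4 in replicate 2. Its second, chr13:38326114-38327012, had 10.1 and 13.4, and the third, between them, had 2.82 and 3.54. In Glyma.13G319600 a region with 12.5 and 14.5 (chr13:41402621-41404086) and another with 6.49 and 4.32 were found, and the middle site had no peak in either replicate. The 3 regions of Glyma.13G101700 averaged 3.85 to 4.87 and those of Glyma.13G122100 averaged 4.09 to 5.23. Several sites in a gene thus did not go with high enrichment at each of them.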

How the data were processed

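Embryos were dissected from early maturation seeds, and chromatin was immunoprecipitated with an antibody to GLYMA.08G227700 or kept as input. Samples were grouped by their labels (2 ChIP, 2 input). The submitters' processing notes name Bowtie 0.12.7 and MACS2 (version not given in the sources used here). MACS3 is named in the study's methods, so that its own peaks may differ from the deposited ones. The peak names carry a q threshold of 0.01. For mapping options and duplicate filters, nothing was stated in these sources. Coordinates were read as Wm82.a2.v1, the annotation named beside the study's genes, and are 1-based.

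The deposited lists hold, for each peak, the authors' fold enrichment (a ratio of ChIP to local background reads, each with a pseudocount of 1), their −log10 p and −log10 q, and a deposited score of 10 times −log10 q, which was not used. Replicate 1 had 22982 peaks and replicate 2 had 20027, with medians of 37 and 26 reads at the summit. Library totals were not used. Summit reads were solved from fold enrichment and −log10 p, to within 0.001 for 100% of the peaks, by a step tested on simulated data.

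Overlapping peaks were merged, and each region took the strongest peak of each replicate. Chromosome length was the end of the last peak. Values were compared between chromosomes without a test, because the chromosome was chosen from them and regions are not replicates. Python 3.11.15, numpy 2.4.6, pandas 2.3.3 and scipy 1.17.1 were used. Genes were named from positions given with the study, which served to attach a gene to a position and entered no test. Peaks at the cot stage, which gave part of the names, come from libraries not analysed here. The named loci were those of the 20 strongest and 5 widest regions, the 5 strongest of the sparse run, genes with at least 3 sites and members of 10 functional lists. The chromosome, lists and rules were chosen with earlier results of these data known. Motifs and sequences were not analysed here. Gene name numbers per Mb were added after the data were seen.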

Additional observations from a re-analysis of the deposited data

How the results depend on the processing

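Chromosome 13 held the most regions in all 7 settings of peak filtering and overlap, and its outer share was the lowest of 20 in every one. With a −log10 q of at least 10 it had 583 regions (12.7 per Mb), an outer share of 37.0% and a strong share of 3.09%, and with the stronger 50% of each list 617 regions (13.5 per Mb) and a strong share of 3.08%. In these 2 settings chromosome 11 was denser, with 13.1 and 13.7 regions per Mb, and the strong share of chromosome 13 ranked 20 of 20. The strongest 5% was there that of the filtered lists, with higher cuts. These 2 strong shares therefore cannot be set beside the 4.53% of the main setting. With 50% reciprocal overlap the values were 20.7 per Mb, 36.2% and 5.17%, and with summits within 100 bp the density was 18.5 per Mb and the strong share 5.92%. Peaks of single replicates, each list without the other, gave 31.8 to 35.7 peaks per Mb, a density ratio of 1.52 to 1.55 and strong shares of 3.99 to 4.10%. The outer share was 47.3% when the outer part was 25% at each end and 20.9% when it was 10%.

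The sparse run began at the first base in every setting and was 10 Mb long, in place of 11 Mb, with the stronger 50% of each list, with windows of 0.5 or 2 Mb and with a threshold of 0.25 times the mean. The ratio of median fold enrichment lay on either side of 1. It was 1.005 with either filter on −log10 q, 0.985 with reciprocal overlap, 1.002 with close summits and 1.007 to 1.009 with single replicates. It was 0.991 for −log10 q, 1.01 for summit reads and 0.941 for means in place of medians. The ratio of median width was 0.999 with the stronger 50% of each list. The share among the strongest 10% of both lists was 10.97%, and among the strongest 1% it was 0.453%.

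Taking the peak nearest to the given position changed the value of 1 of the 49 list genes, *MYB101* (5.30, in place of 5.40). A single replicate differed from the mean of both by over 1.5 times at 1 of them, *PBP1*, with 2.51 in replicate 1 and a mean of 4.01. Chromosome lengths from a reference were not used here, so that alternative was not run, nor was the motif search. No paired analysis was possible because the input samples entered no comparison here and no test was made. With 2 replicates, the weakest regions rest on 22 (replicate 1) and 15 (replicate 2) summit reads, which limits the precision of their values.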
